A study of Mus musculus with 18 samples.

Results

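The comparison described here is between livers of mice that received CMPF before a high-fat diet (HFD) and livers of chow-fed mice, in wild-type CD1 mice. It rests on 6 of the 18 arrays of the series, chosen by their titles: 3 of the CMPF HFD group and 3 of the chow group of the prevention model. CMPF is a furan fatty acid found in the circulation. The CMPF HFD mice were given it at 6 mg/kg per day for 1 week and then ate a diet with 60% of its energy from fat for 4 weeks, per the sample labels (4 to 5 weeks in the design text of the series), before the liver was taken at the end of the diet period. The HFD group of the same model had vehicle for 1 week and the same diet. In the reversal model, mice ate HFD for 6 weeks and were then injected for 2 weeks with vehicle or with the same dose of CMPF, and chow mice were again the reference. It is not stated whether the chow mice were injected or whether a group's 3 arrays stand for 3 animals, so each p-value measures the spread between arrays, which may be technical. CMPF and the diet both separate the CMPF HFD group from chow, and their parts in a difference cannot be told apart within this comparison.

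The liver takes up fatty acids from blood, burns them in mitochondria after the carnitine shuttle has carried them in, or stores them as triglyceride in lipid droplets. In the fed state it makes fatty acids from sugar, and in fasting it makes glucose and ketone bodies. A high-fat diet loads these routes, and liver zonation, growth hormone signalling and the circadian clock set much of the expression of the enzymes involved.

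Values are log2 signals of Affymetrix probe sets, so a difference of 1 is a 2-fold change, and 13228 genes were tested. CMPF HFD arrays 2 and 3 were nearly identical: between them 0 genes were more than 2-fold apart, whereas any of the other 152 pairs of arrays had 115 or more such genes. They were averaged and counted as 1 sample, which leaves n = 2 for CMPF HFD and n = 3 for chow. The array means lay from 5.08 to 5.10 in prevention and from 5.25 to 5.26 in reversal, so levels of the models are not set against each other, only differences within a model. The labelled tissue was borne out by 8 tested hepatocyte markers, whose summed linear signal was 113504, 107681 and 112478 in chow and 103450, 106642 and 105642 in CMPF HFD. Of the 18 arrays, reversal chow 2 stood apart, with a median correlation of 0.948 with the others of its model.

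Arrays of the chow group differed among themselves and, on the index below, from the other prevention arrays. Chow 2 had 435 genes more than 2-fold apart from chow 1 and 250 from chow 3. It had 115, 257 and 210 such genes apart from CMPF HFD 1, 2 and 3, so chow 2 was nearer to CMPF HFD 1 than to its own group. Chow 1 and chow 3 had 251 between them and from 365 to 615 against the CMPF HFD arrays. The 3' to 5' index, the mean 3' minus 5' signal (log2) of the Gapdh and beta-actin control probe sets, is higher where RNA is shorter. It was 1.33, 1.98 and 0.968 in chow and 3.16, 2.78 and 2.73 in CMPF HFD, so the groups did not overlap. The index was 1.53 higher in CMPF HFD, with p = 0.2 in an exact two-sided permutation test, which is the lowest value possible with 2 samples against 3. In the HFD group the index was 2.66, 2.67 and 3.19. Kupffer cell and monocyte markers (15 on the array of 18 listed) had summed linear signals of 6704, 1675 and 2418 in chow and 1506, 4013 and 3522 in CMPF HFD, highest in chow 1. In a bulk liver sample, fewer cells of a type and less RNA per cell cannot be told apart. Pancreatic acinar markers (6 on the array of 10 listed) summed to 886, 746 and 1436 in chow and 844, 785 and 721 in CMPF HFD, highest in chow 3, where the acinar gene Cpa1 was at 7.43 against 4.65 and 5.74 in the other chow arrays. The exact two-sided permutation p between the groups was 0.8 for the first of these lists and 0.6 for the second. Gene by gene, all 5 acinar markers tested had negative values (median -0.88), and 0 passed an adjusted p of 0.05 in limma. Of these 5, 3 were lower at an unadjusted p under 0.05 and 3 lay wholly below chow, against 4.2% and 14.4% of all genes. Of the 10 marker lists, 3 did not overlap between the groups and had an exact permutation p = 0.2, the lowest possible. Among all genes, 17.3% lay wholly above and 14.4% wholly below chow. These 3 were the hepatocyte sums above and the cholangiocyte and adipocyte sums. Cholangiocyte sums were 338, 332 and 280 in chow against 232, 189 and 197 in CMPF HFD. Of the 5 cholangiocyte markers tested, 4 had positive values (median 0.08). Onecut1 was at 7.81, 7.69 and 7.27 in chow and 6.65, 5.68 and 5.62 in CMPF HFD. Adipocyte sums were 13082, 12785 and 11748 against 14117, 13966 and 14115. They followed its brightest member, Car3, at 13.67, 13.63 and 13.51 (log2) in chow and 13.78, 13.76 and 13.78 in CMPF HFD. Adipoq, of the same list, was at 3.34, 4.65 and 4.06 in chow and 3.31, 3.73 and 3.57 in CMPF HFD, with overlap. The adipocyte sums therefore stand for Car3 and not for the list. Only 2 of the 8 adipocyte markers listed were tested, at 0.17 and -0.14. The part of these marker lists in the results was not tested.

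**Figure D1:**
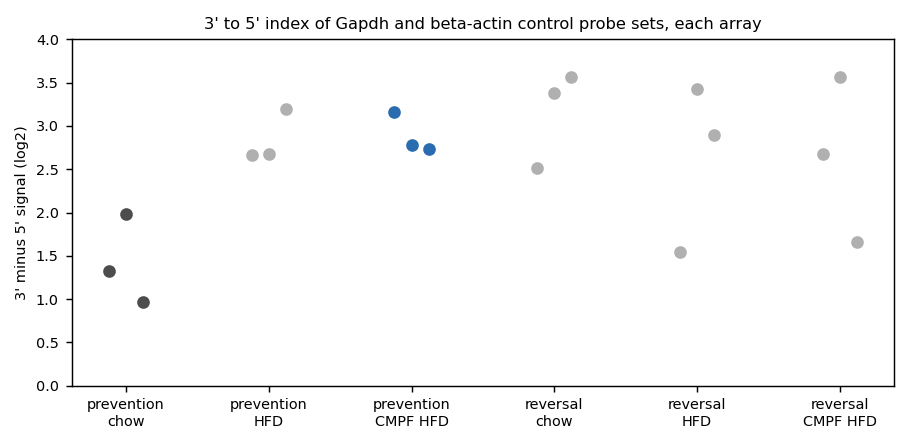
Each point is the 3' minus 5' signal (log2) of the control probe sets on 1 array, by group (x axis). The 3 prevention chow arrays lie from 0.968 to 1.98 and the 3 prevention CMPF HFD arrays from 2.73 to 3.16, without overlap.

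Of 13228 genes, 0 (0%) passed an adjusted p of 0.05 for CMPF HFD against chow in limma, with 1321 at an unadjusted p under 0.05 where 661.4 are expected, and a lowest adjusted p of 0.222. Of these 1321, 766 were higher (5.79% of all genes) and 555 lower (4.2%). The genes with the smallest p upward were Tpgs2, a tubulin polyglutamylase subunit, Actb, beta-actin, and Sars, the cytosolic seryl-tRNA synthetase. Downward they were Cpt1a, the carnitine palmitoyltransferase that admits fatty acids to mitochondria, Got1, the cytosolic aspartate aminotransferase, and Bfar, an apoptosis regulator. The values below are therefore given with their error, and no gene is said to have changed in this comparison. The median SE of a gene was 0.18 and the median half-width of its 95% interval 0.385.

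Got1 was at 8.14, 7.95 and 8.94 in chow and at 5.68, 5.43 and 5.34 in CMPF HFD arrays 1 to 3. All CMPF HFD arrays lay below all chow arrays, a difference of -2.81 ± 0.53 (log2 fold change ± SE, adjusted p = 0.222), a 7.03-fold difference of the means. Cpt1a was at 11.57, 11.21 and 11.52 in chow and at 10.58, 10.66 and 10.55 in CMPF HFD, a difference of -0.84 ± 0.16 (adjusted p = 0.222) with no overlap. Sars was at 7.74, 8.01 and 7.66 against 8.48, 8.49 and 8.504, higher by 0.68 ± 0.12, and Tpgs2 at 4.58, 4.77 and 4.45 against 5.64, 5.97 and 5.70, higher by 1.14 ± 0.19 (adjusted p = 0.222 for both). Here too the groups were apart on every array. Bfar differed by -0.85 ± 0.17 (adjusted p = 0.273) and Actb by 0.72 ± 0.13 (0.222). Among all genes, CMPF HFD lay wholly above chow in 2287 (17.3%) and wholly below in 1900 (14.4%), which is the background for the counts of genes without overlap below. For the list counts at an unadjusted p under 0.05, the background is 5.79% of all genes higher and 4.2% lower. Many lists lay near these shares. Genes named for a small p in this comparison were picked by these same values, so their lack of overlap is no further evidence. With all of a gene's probe sets averaged in place of the brightest one, Cpt1a was at -0.25, Actb at 0.29, Sars at 0.42 and Tpgs2 at 0.74. With all 18 arrays counted, 6 genes passed, and array weights, whose estimate did not converge, gave 190.

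**Figure D2:**
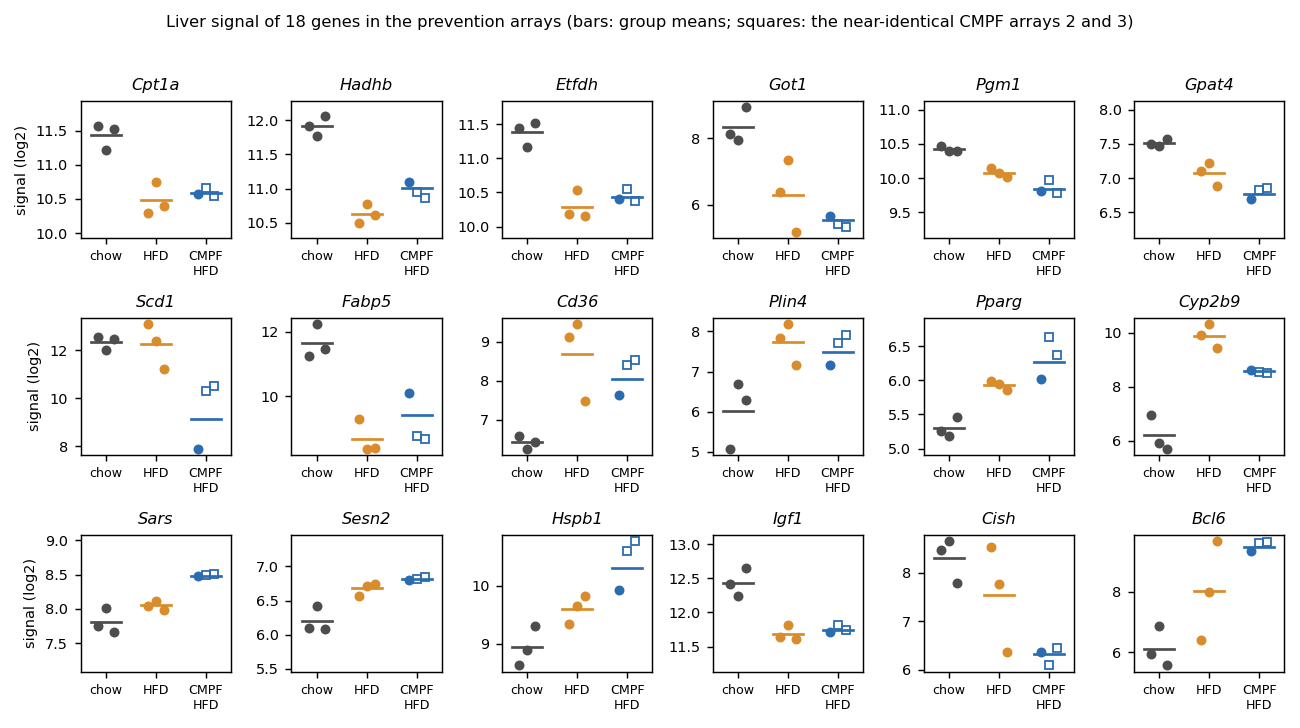
Log2 signal (y axis) of 18 genes in the chow, HFD and CMPF HFD arrays of the prevention model, with bars at the group means and open squares for the near-identical CMPF HFD arrays 2 and 3. Cpt1a, Hadhb, Etfdh and Got1 lie lower in CMPF HFD than in chow without overlap, while Scd1 lies below both groups.

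Mitochondrial fatty acid oxidation leaned lower. Of 19 genes tested, 0 passed, 5 were lower and 0 higher at an unadjusted p under 0.05, 12 lay wholly below chow, and the median was -0.39 against 0.00 for all genes. Besides Cpt1a, the values were those of an electron carrier of beta-oxidation and of the trifunctional protein, which carries out the last steps of each turn. Hadhb, its beta subunit, was at 11.92, 11.77 and 12.06 in chow and 11.10, 10.95 and 10.85 in CMPF HFD, a difference of -0.91 ± 0.22 (adjusted p = 0.283). Hadha, the alpha subunit, differed by -0.58 ± 0.17 (0.379). Etfdh, which passes the electrons to ubiquinone, was at 11.45, 11.16 and 11.52 against 10.40, 10.55 and 10.37, a difference of -0.94 ± 0.27 (0.357). On all of these probe sets every CMPF HFD array lay below every chow array. With the RNA index as a covariate the list's median was -0.14, Hadhb was at -0.44, Etfdh at -0.35 and Cpt1a at -0.58. The mean of Hadhb's probe sets gave -0.16. Without CMPF HFD 2 and 3 the members lower at unadjusted p under 0.05 were 3.

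Oxidation in peroxisomes and by omega-hydroxylation had a median of -0.23 over 18 genes, with 2 lower and 0 higher at unadjusted p under 0.05. Ehhadh, the peroxisomal bifunctional enzyme and a target of PPAR alpha, was at 12.65, 12.73 and 12.46 in chow and 11.62, 11.75 and 11.67 in CMPF HFD, a difference of -0.95 ± 0.33 (adjusted p = 0.399). Abcd3, a peroxisomal fatty acid transporter, differed by -0.39 ± 0.16 (0.476) and Crot, which exports the shortened acids as carnitine esters, by -0.47 ± 0.28 (0.581). The omega-hydroxylase Cyp4a31 ranged widely, at 8.98, 8.69 and 7.03 in chow and 8.08, 6.72 and 6.69 in CMPF HFD, and the groups overlapped. Ppara itself, the receptor that drives these genes in fasting, was at 10.62, 10.92 and 10.60 against 10.41, 10.32 and 10.36, a difference of -0.33 ± 0.24 (0.64). The list's median was -0.10 without chow 1 and -0.08 without CMPF HFD 2 and 3, and 0 members were lower without CMPF HFD 1. With the index as a covariate 0 were lower too, and the median was 0.01, Crot at 0.09 and Ppara at -0.01.

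Of 9 genes of ketone body synthesis and fasting hormones, 1 was higher and 1 lower at unadjusted p under 0.05 (median -0.17). Creb3l3, a fasting-induced transcription factor of the endoplasmic reticulum, differed by -0.38 ± 0.11 (adjusted p = 0.379) and Txnip, a glucose-responsive brake on glucose uptake, by 0.83 ± 0.26 (0.399). Acat1, which forms acetoacetyl-CoA, differed by -0.49 ± 0.29 (0.575). Fgf21, a hepatic hormone of fasting and stress, was at 7.52, 6.200 and 6.38 in chow and 7.97, 7.04 and 7.11 in CMPF HFD. Chow 1 lay above CMPF HFD 2 and 3, and the difference of 0.82 ± 0.49 (adjusted p = 0.574) was 0.38 without CMPF HFD 1 and 1.27 without the other sample.

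Genes that make glucose and handle glycogen leaned lower as well. Of 16 tested, 0 passed, 7 were lower and 2 higher at unadjusted p under 0.05, 10 lay wholly below chow and 2 above, and the median was -0.51. Pgm1, phosphoglucomutase, which joins glycogen to glucose 6-phosphate, was at 10.47, 10.40 and 10.40 in chow and 9.81, 9.97 and 9.79 in CMPF HFD, a difference of -0.58 ± 0.16 (adjusted p = 0.35). Pcx, pyruvate carboxylase, the entry to gluconeogenesis, was at 11.46, 11.48 and 11.37 against 10.86, 10.79 and 10.81, a difference of -0.61 ± 0.23 (0.413). G6pc, the phosphatase that releases glucose, was at 10.13, 11.47 and 11.22 against 9.87, 9.59 and 9.74, a difference of -1.17 ± 0.44 (0.413). All CMPF HFD arrays were below all chow arrays for Pgm1, Pcx and G6pc. Ppp1r3g, a glycogen-targeting subunit of protein phosphatase, spread from 4.27 to 6.77 in chow and lay at 4.03, 3.84 and 3.68 in CMPF HFD, a difference of -1.79 ± 0.50 (0.351). Without chow 1 its value was -2.50 (limma adjusted p = 0.0243), and it was the 1 gene that passed in that fit, so its call rested on that array being left out. Pck1, the rate-limiting enzyme of gluconeogenesis, differed by -0.48 ± 0.32 (0.61). The index as a covariate brought the list's median to -0.21, Pgm1 to -0.28, Pcx to -0.28 and Pck1 to 0.08, and the list then had 4 members higher and 3 lower, while Got1 was at -2.28. Without chow 3 the members lower were 4, and 0 were higher with any 1 of the 5 samples left out.

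Zonation genes, which are expressed near the portal or the central vein, were read next. The 19 pericentral genes had a median of 0.39, with 6 higher and 0 lower at unadjusted p under 0.05 and 11 wholly above chow. Glul, glutamine synthetase of the innermost hepatocytes, was at 11.996, 12.14 and 11.83 in chow and 12.65, 12.38 and 12.42 in CMPF HFD, a difference of 0.53 ± 0.13 (adjusted p = 0.283). Slc13a3, a dicarboxylate transporter, was at 7.16, 6.72 and 6.24 against 7.996, 8.43 and 8.45, a difference of 1.51 ± 0.47 (0.399). Axin2, a target of Wnt signalling, differed by 0.63 ± 0.23 (0.404) and Ldhd, D-lactate dehydrogenase, by 0.60 ± 0.20 (0.399). None of these overlapped between the groups. Axin2 was at 0.35 without CMPF HFD 1, and Ldhd at 0.24 with the index as a covariate and 0.20 for the mean of its probe sets. The 30 genes of the periportal zone and urea cycle had a median of -0.21, with 2 higher and 6 lower at unadjusted p under 0.05, and 12 wholly below chow. Slc25a13, the aspartate-glutamate carrier that feeds the urea cycle, was at 10.83, 10.15 and 10.98 against 9.48, 9.64 and 9.64, a difference of -1.10 ± 0.39 (0.399). Mat1a, which makes S-adenosylmethionine, differed by -0.56 ± 0.19 (0.399), and Prodh, proline dehydrogenase, by 0.89 ± 0.27 (0.379). With the index as a covariate the periportal median was 0.00 and Slc25a13 at -0.17, and the pericentral median was 0.27 with 3 members higher. The pericentral count was 2 without CMPF HFD 1. The lower periportal count was 2 without CMPF HFD 1 and 3 without chow 3.

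De novo lipogenesis did not lean, with a median of 0.04 over 19 genes and 0 higher and 2 lower at unadjusted p under 0.05. The lowest value in the table of all genes belonged to Scd1, the stearoyl-CoA desaturase that makes oleic acid. It was at 12.54, 11.9999 and 12.48 in chow, at 7.91, 10.32 and 10.50 in CMPF HFD and at 13.08, 12.40 and 11.23 in HFD. CMPF HFD 1 was far below CMPF HFD 2 and 3, and the difference from chow was -3.18 ± 0.92 (adjusted p = 0.374; 95% interval -5.15 to -1.21). It was -1.93 without CMPF HFD 1, -1.89 for the mean of its probe sets and -1.65 with the index as a covariate. Acacb, the acetyl-CoA carboxylase at the mitochondrial surface whose product blocks Cpt1a, was at 6.19, 7.15 and 6.48 against 6.05, 5.70 and 5.44, a difference of -0.79 ± 0.34 (0.48). Fasn, the fatty acid synthase, differed by -0.12 ± 0.29 (0.919), its cytosolic supplier Acaca by 0.04 ± 0.15 (0.96) and Srebf1, the lipogenic transcription factor, by 0.26 ± 0.37 (0.839), each with overlapping groups. Elovl6, a long-chain elongase, differed by -0.55 ± 0.27 (0.513) and Tkt, transketolase, by 0.38 ± 0.18 (0.5).

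Triglyceride synthesis and storage had members far apart in both directions. Gpat4, a glycerol phosphate acyltransferase of the endoplasmic reticulum, was at 7.49, 7.47 and 7.57 in chow and 6.69, 6.83 and 6.85 in CMPF HFD, a difference of -0.74 ± 0.19 (adjusted p = 0.308). Gpd1, which makes glycerol phosphate, differed by -0.43 ± 0.14 (0.399). On the other side, Mogat1, a monoacylglycerol acyltransferase, was at 4.40, 4.80 and 4.72 against 5.26, 5.77 and 5.80, a difference of 0.89 ± 0.32 (0.41), and Dgat2, of the last step, differed by 0.24 ± 0.13 (0.546). The list of 13 had 1 higher and 2 lower at unadjusted p under 0.05 and a median of 0.04. With 1 sample left out in turn 0 to 3 were higher, the most without chow 2. With the index as a covariate Gpat4 was at -0.32. Pparg, the nuclear receptor of fat storage, was at 5.26, 5.18 and 5.46 in chow and 6.02, 6.64 and 6.37 in CMPF HFD, a difference of 0.96 ± 0.20 (0.273), apart on every array. With each of the 5 samples left out in turn it lay from 0.72 to 1.21.

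Among 14 genes of fatty acid and lipoprotein uptake, 2 were higher and 2 lower at unadjusted p under 0.05 (median -0.14). Cd36, the fatty acid translocase, was at 6.60, 6.27 and 6.44 in chow and 7.64, 8.41 and 8.53 in CMPF HFD, a difference of 1.62 ± 0.57 (adjusted p = 0.399). Fabp5, a fatty acid binding protein, was at 11.25, 12.24 and 11.46 against 10.10, 8.75 and 8.66, a difference of -2.25 ± 0.73 (0.399). Slc27a4, a fatty acid transport protein, differed by 0.49 ± 0.17 (0.399) and the main hepatic form Slc27a2 by -0.24 ± 0.11 (0.496). The groups were apart for all 4. The index as a covariate turned the median of the uptake list to 0.14, with 1 higher and 1 lower, and with 1 sample left out in turn 1 to 3 were higher and 1 to 3 lower. Of 16 lipid droplet genes 1 was higher at unadjusted p under 0.05, near the 5.79% of all genes, and 12 had negative values (median -0.19). That gene, the droplet coat protein Plin4, was at 5.08, 6.70 and 6.28 in chow and 7.17, 7.72 and 7.91 in CMPF HFD, a difference of 1.48 ± 0.44 (0.379), whereas Abhd5, the activator of the first lipase, differed by -0.54 ± 0.29 (0.539) and Plin3 by -0.25 ± 0.17 (0.638). The median of the droplet list was -0.02 with the index as a covariate and -0.06 without CMPF HFD 2 and 3.

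**Figure D3:**
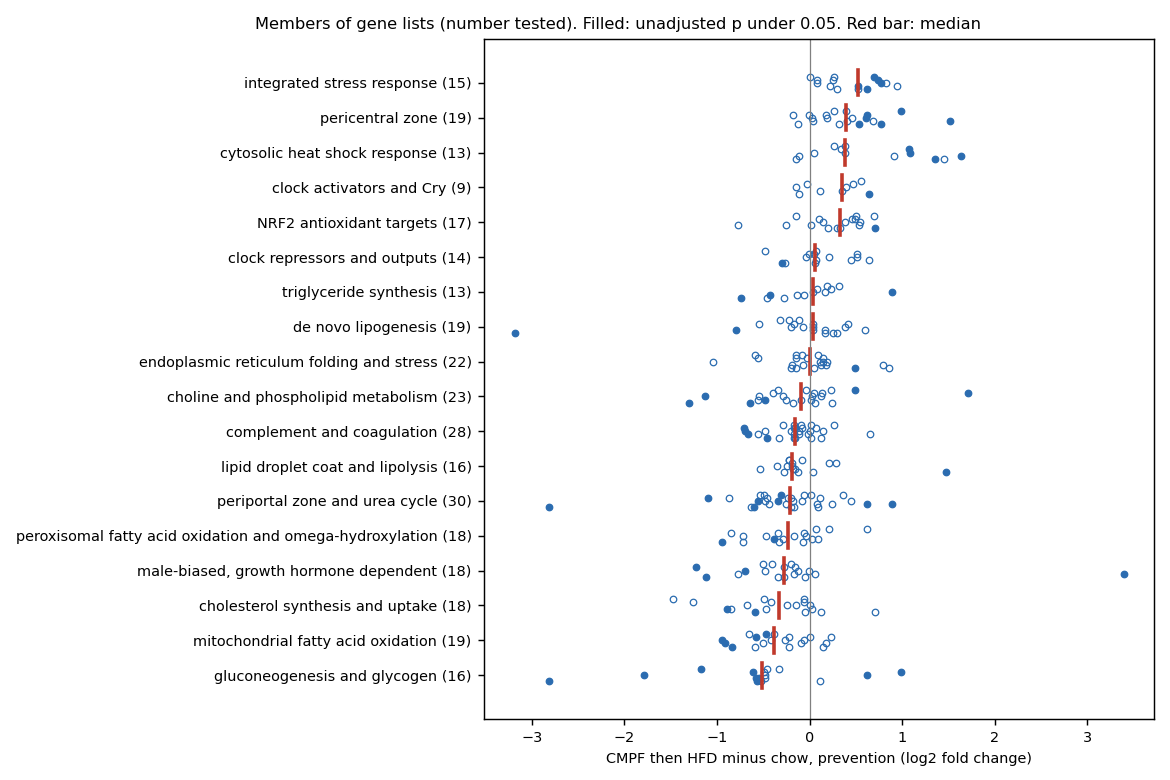
Log2 fold change of CMPF HFD against chow in the prevention model (x axis) for each tested member of 18 gene lists (rows, with the number tested), filled at an unadjusted p under 0.05, and the list's median as a red bar. Medians run from -0.51 for gluconeogenesis and glycogen to 0.52 for the integrated stress response, and single members such as Scd1 at -3.18 and Bcl6 at 3.39 lie far from their lists.

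For the metabolism of polyunsaturated fatty acids and eicosanoids, 23 genes were tested. They had 3 higher and 6 lower at unadjusted p under 0.05, 6 wholly above and 6 wholly below chow, and a median of -0.01. Members of the Cyp2c family of epoxygenases stood on both sides. Cyp2c38 was at 8.09, 8.33 and 8.29 in chow and 9.35, 9.35 and 9.57 in CMPF HFD, a difference of 1.17 ± 0.28 (adjusted p = 0.276), and Cyp2c29 differed by 0.49 ± 0.16 (0.399). Cyp2c68 was at 11.74, 10.98 and 11.87 against 10.08, 10.22 and 10.15, a difference of -1.39 ± 0.33 (0.276). Transcripts of this family are alike in sequence, so their probe sets can share signal. Fads2, the delta-6 desaturase, differed by -0.34 ± 0.13 (0.434). The members lower were 2 without chow 1, and 3 without chow 3 or without CMPF HFD 2 and 3.

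Cholesterol synthesis and uptake had a median of -0.33 over 18 genes, with 15 negative values, 2 lower at unadjusted p under 0.05 and overlap between the groups in all 18. The samples of the CMPF HFD group differed here. Fdps, farnesyl diphosphate synthase, was at 6.23, 6.71 and 7.91 in chow and at 6.43, 4.72 and 5.18 in CMPF HFD, with array 1 inside the chow range and arrays 2 and 3 below it, a difference of -1.26 ± 0.63 (adjusted p = 0.521). Stard4, a sterol transfer protein, was at 8.67, 8.63 and 8.99 against 8.69, 7.62 and 7.35 with the same split, a difference of -0.68 ± 0.32 (0.5). Sc5d and Tm7sf2, enzymes of the last steps, differed by -0.90 ± 0.37 (0.468) and -0.59 ± 0.22 (0.426). The median of the list was -0.70 without CMPF HFD 1, with 8 members lower, and 0.24 without CMPF HFD 2 and 3, with 1 higher. Without chow 3 it was -0.10 with 0 lower, and without chow 1 it was -0.53.

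Bile acid genes had 2 higher and 2 lower of 20 at unadjusted p under 0.05 (median 0.09). Slc10a1, the sodium-dependent bile acid importer NTCP, was at 12.17, 11.71 and 12.34 in chow and 11.04, 11.27 and 11.20 in CMPF HFD, a difference of -0.93 ± 0.20 (adjusted p = 0.273). Cyp8b1, the sterol 12-alpha-hydroxylase, was at 10.67, 11.17 and 11.001 against 10.56, 9.14 and 9.15, a difference of -1.09 ± 0.34 (0.399), with array 1 near chow. The value of Cyp8b1 was -1.80 without CMPF HFD 1 and -0.39 without CMPF HFD 2 and 3. Nr0b2, the repressor SHP that answers bile acids, was at 8.59, 8.62 and 8.32 against 9.29, 9.50 and 9.56, a difference of 0.90 ± 0.32 (0.402), and the exporter Abcc3 differed by 0.56 ± 0.19 (0.399). The list had 4 higher without CMPF HFD 1, and 0 higher and 1 lower with a median of -0.11 without CMPF HFD 2 and 3. Its median was -0.03 with the index as a covariate.

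In the integrated stress response, the program that the kinases of eIF2 alpha switch on through ATF4, all 15 tested genes had positive values. Of these, 5 were higher and 0 lower at unadjusted p under 0.05, 7 lay wholly above chow, 0 passed, and the median was 0.52. Sesn2, a leucine sensor that restrains mTORC1, was at 6.09, 6.42 and 6.08 in chow and 6.80, 6.82 and 6.84 in CMPF HFD, a difference of 0.62 ± 0.14 (adjusted p = 0.276). Eif4ebp1, a repressor of cap-dependent translation, was at 9.41, 9.66 and 9.27 against 9.89, 9.99 and 10.09, a difference of 0.52 ± 0.12 (0.276). Atf5, a transcription factor of the mitochondrial stress response, differed by 0.77 ± 0.33 (0.477) and Trib3, a pseudokinase of the pathway, by 0.74 ± 0.33 (0.489). Trib3 rested on CMPF HFD 1, at 8.07 against 6.95 and 6.85, and was at 0.16 without it. With the index as a covariate the list's median was 0.32 with 4 members higher, and with each gene's probe sets averaged it was 0.26, Sesn2 at 0.27 and Eif4ebp1 at 0.04. The members higher were 2 without chow 3, and 3 without chow 1 or without CMPF HFD 1.

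The promoters of this program are known to carry a C/EBP-ATF response element. The letters TGATGCAA were searched on both strands in the RefSeq promoter windows of mouse build GRCm38.p6, 250 bases before to 50 after the start, and 0.895% of all 32851 windows held them. Of the 15 list members, 14 had a window and 5 held the letters in at least 1 window: Atf3, Chac1, Fgf21, Nupr1 and Vldlr. A gene with several starts has several windows, so this count of genes and the share of windows are unlike measures. The window of Got1, the gene with one of the smallest p downward, held them too. The windows of Fgf21 (chr7:45615441-45615740, minus strand) and Got1 (chr19:43524556-43524855, minus strand) are printed to show these letters in a gene with a positive and in one with a negative value. Each is written 5' to 3', with the matches in capitals; Fgf21 also holds CACGTG, the E-box, the other capitals of its window. A match is a description of the letters and not a measured binding site, and the genes were chosen after their values were seen.
Fgf21: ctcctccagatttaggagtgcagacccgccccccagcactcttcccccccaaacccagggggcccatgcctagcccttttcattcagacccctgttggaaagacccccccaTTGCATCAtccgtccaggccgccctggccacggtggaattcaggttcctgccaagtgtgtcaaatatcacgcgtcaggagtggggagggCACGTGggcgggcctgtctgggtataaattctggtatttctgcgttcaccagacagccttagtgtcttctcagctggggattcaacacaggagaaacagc
Got1: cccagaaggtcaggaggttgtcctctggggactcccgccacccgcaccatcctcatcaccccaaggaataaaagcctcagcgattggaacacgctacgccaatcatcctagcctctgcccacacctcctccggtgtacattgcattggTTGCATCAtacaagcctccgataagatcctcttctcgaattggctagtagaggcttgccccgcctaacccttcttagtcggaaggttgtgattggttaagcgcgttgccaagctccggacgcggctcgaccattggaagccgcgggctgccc

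Cytosolic heat shock genes, which refold and hold proteins, had a median of 0.38 over 13 genes, with 4 higher and 0 lower at unadjusted p under 0.05 and 9 wholly above chow. Hspb1, a small heat shock protein, was at 8.63, 8.89 and 9.31 in chow and 9.92, 10.60 and 10.77 in CMPF HFD, a difference of 1.36 ± 0.29 (adjusted p = 0.273), with no overlap. Dnajb1, a co-chaperone of HSP70, was at 8.08, 10.91 and 10.40 against 11.35, 11.39 and 11.63, a difference of 1.63 ± 0.57 (0.399). Chow 1 was far below the other chow arrays, and the value was 0.78 without it. Bag3, a co-chaperone of autophagy, differed by 1.08 ± 0.40 (0.41) and Hsph1, a nucleotide exchange factor, by 1.07 ± 0.45 (0.468). The members higher were 2 without chow 3 and 1 without CMPF HFD 2 and 3.

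The 17 antioxidant targets of NRF2 had a median of 0.33, with 14 positive values, 1 higher and 0 lower at unadjusted p under 0.05. Gstm4, a glutathione transferase, was at 8.14, 8.28 and 7.94 in chow and 8.67, 9.06 and 8.90 in CMPF HFD, a difference of 0.71 ± 0.17 (adjusted p = 0.276). Srxn1, sulfiredoxin, differed by 0.53 ± 0.28 (0.532) and Gclc, of glutathione synthesis, by 0.54 ± 0.32 (0.568). The list's median was 0.58 without CMPF HFD 1 and 0.01 without CMPF HFD 2 and 3, so it rested on the latter sample, and it was 0.56 with the index as a covariate. The members higher were 4 without CMPF HFD 1, 2 without chow 1 and 7 with the index as a covariate. Protein folding in the endoplasmic reticulum did not lean (22 genes, median 0.01, 1 higher). Calr, calreticulin, differed by 0.49 ± 0.20 (0.468), Hyou1, a folding chaperone, by 0.79 ± 0.43 (0.547), Pdia3, a disulfide isomerase, by -1.04 ± 0.57 (0.548) and Dnajb9, a target of the unfolded protein response, by -0.55 ± 0.33 (0.574).

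Growth hormone acts on the liver through STAT5 and sets sex-biased expression. Of 15 genes of this signalling, 0 were higher and 2 lower at unadjusted p under 0.05, and the median was -0.11. Igf1, its main secreted product, was at 12.42, 12.24 and 12.66 in chow and 11.71, 11.81 and 11.74 in CMPF HFD, a difference of -0.69 ± 0.20 (adjusted p = 0.379). Cish, a feedback inhibitor induced by STAT5, was at 8.47, 8.66 and 7.79 against 6.36, 6.09 and 6.46, a difference of -1.99 ± 0.62 (0.399), and Socs2, of the same family, at 9.83, 9.66 and 9.43 against 8.80, 7.60 and 7.63, a difference of -1.44 ± 0.84 (0.571). Bcl6, a repressor that binds at STAT5 sites and a member of the male-biased list, had the highest value of all genes: 5.93, 6.86 and 5.56 in chow and 9.37, 9.63 and 9.66 in CMPF HFD, a difference of 3.39 ± 1.095 (0.399; 95% interval 1.05 to 5.74). Igf1, Cish, Socs2 and Bcl6 did not overlap between the groups. Bcl6 spread from 6.40 to 9.69 among the HFD arrays and was at 1.52 with the index as a covariate.

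Of 18 male-biased genes, 16 had negative values, 1 was higher and 3 lower at unadjusted p under 0.05, and the median was -0.28. Keg1, a glycine acyltransferase-like protein, was at 11.08, 10.43 and 10.90 in chow and 9.72, 9.71 and 9.61 in CMPF HFD, a difference of -1.11 ± 0.27 (adjusted p = 0.276), and Ugt2b38, a glucuronosyltransferase, was at 7.28, 8.29 and 8.38 against 7.07, 6.49 and 6.42, a difference of -1.22 ± 0.48 (0.453). The 16 female-biased genes had a median of -0.03, 2 higher and 1 lower. Cyp2b9, a cytochrome P450 of the female liver, was at 6.96, 5.93 and 5.71 against 8.61, 8.55 and 8.51, a difference of 2.37 ± 0.63 (0.35), and Fmo4, a flavin monooxygenase, differed by -0.71 ± 0.25 (0.399).

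Among secreted proteins, the 28 genes of complement and coagulation had 0 higher and 4 lower at unadjusted p under 0.05, 13 wholly below chow and a median of -0.16. F11, coagulation factor XI, was at 9.50, 9.28 and 9.60 in chow and 8.86, 8.67 and 8.78 in CMPF HFD, a difference of -0.66 ± 0.22 (adjusted p = 0.399). C8b of the membrane attack complex differed by -0.70 ± 0.28 (0.453), Serpind1, heparin cofactor II, by -0.71 ± 0.28 (0.457) and F13b, a carrier of factor XIII, by -0.46 ± 0.15 (0.399). With the index as a covariate C8b was at -1.20 and Serpind1 at -0.06. The members lower were 2 without chow 1 and 1 without CMPF HFD 2 and 3.

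Choline is stored in phosphatidylcholine, and the 23 genes of this metabolism had 2 higher and 4 lower at unadjusted p under 0.05 (median -0.10). Pcyt1a, the rate-limiting enzyme of phosphatidylcholine synthesis, was at 8.81, 8.005 and 8.54 in chow and 6.76, 7.55 and 7.53 in CMPF HFD, a difference of -1.30 ± 0.33 (adjusted p = 0.308). Chka, choline kinase, the step before it, was at 6.32, 7.54 and 6.42 against 8.58, 8.26 and 8.44, a difference of 1.71 ± 0.50 (0.379). Gpcpd1, which frees choline from glycerophosphocholine, was at 11.37, 10.90 and 10.91 against 10.12, 9.76 and 9.71, a difference of -1.13 ± 0.31 (0.35), and Chdh, which oxidises choline, differed by -0.49 ± 0.13 (0.35). The groups did not overlap for these 4 genes. With the index as a covariate Pcyt1a was at -0.59 and Chka at 0.52, and without chow 2 the members lower were 9.

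The HFD group of the prevention model, which had vehicle in place of CMPF, was compared with the same chow arrays, so the values of both comparisons are given side by side. For HFD against chow (n = 3 against 3), 230 genes were higher (1.74%) and 507 lower (3.83%) at an adjusted p of 0.05. That count was 12 without chow 1, 1624 without chow 2, 8 without chow 3 and 17 with the index as a covariate. Cpt1a was at -0.96 for HFD and -0.84 for CMPF HFD, and Hadhb at -1.29 and -0.91. Cd36 was at 2.25 and 1.62, Plin4 at 1.71 and 1.48, and Cyp2b9 at 3.68 and 2.37. Other genes lay further apart. Scd1 was at -0.10 for HFD and -3.18 for CMPF HFD, Acacb at 0.46 and -0.79, Fgf21 at -1.22 and 0.82, and Nr0b2 at -0.55 and 0.90. The median of the 22 endoplasmic reticulum genes was -0.57 and 0.01, and that of the 18 male-biased genes -0.88 and -0.28.

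The direct test of CMPF HFD against HFD (n = 2 against 3) gave 0 genes past an adjusted p of 0.05 in limma (0%), with 1060 at an unadjusted p under 0.05 and 36 with all 18 arrays counted. Array weights, again without convergence, gave 98, and quantile normalization and cyclic loess gave 1 each. Fgf21 was at 4.73, 6.00 and 5.72 in HFD, all below the CMPF HFD arrays, with a difference of 2.04 ± 0.49 (adjusted p = 0.274). Scd1 differed by -3.08 ± 0.92 (0.409) and Acacb by -1.25 ± 0.34 (0.359). The 5 smallest p upward belonged to Capn7, a calpain (0.72 ± 0.12), Sntb1, a syntrophin (0.90 ± 0.15), Ccdc47, an endoplasmic reticulum protein (0.70 ± 0.13), Hspa4l, a relative of HSP110 chaperones (0.78 ± 0.15), and Slc33a1, the acetyl-CoA transporter of the endoplasmic reticulum (0.93 ± 0.18). Sntb1 was at 8.22, 8.500 and 8.20 in HFD, 9.06, 9.39 and 9.31 in CMPF HFD and 9.37, 8.98 and 8.97 in chow, so that CMPF HFD lay in the range of chow or just above it. Capn7, Ccdc47 and Slc33a1 also lay above HFD on every array and overlapped chow, with differences of 0.20, 0.09 and 0.17 from chow. Downward the 5 were Tmem120a, a nuclear envelope protein of fat cells (-1.03 ± 0.16), Ttc39a (-1.09 ± 0.20), Cenpm, a centromere protein (-0.96 ± 0.21), Upk1a, a uroplakin (-0.42 ± 0.10), and Limd2 (-0.78 ± 0.18). Tmem120a was at 9.93, 9.70 and 9.53 in HFD, 8.66, 8.75 and 8.69 in CMPF HFD and 9.32, 9.33 and 9.32 in chow, lowest in CMPF HFD. Adjusted p-values in limma were 0.188 to 0.253 for these 10.

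In the reversal model, where CMPF followed the diet and whose arrays are not shared, CMPF HFD against chow (n = 3 against 3) gave 213 genes higher (1.61%) and 52 lower (0.393%) at an adjusted p of 0.05, and 138 in all without the chow array that stood apart. Of these 213, 94 had a positive and 119 a negative value in prevention (median -0.03), and of the 52, 31 had a positive and 21 a negative value. The difference between the models was tested itself, as an interaction. It passed for 50 genes: 12 were higher (0.0907%) and 38 lower (0.287%) in prevention relative to reversal. That count depended on single libraries and on the index. It was 9 without prevention chow 1, 257 without chow 2, 7 without chow 3, 4 without CMPF HFD 1, 0 without CMPF HFD 2 and 3, 29 without reversal chow 2 and 0 with the index as a covariate.

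Cholesterol genes made up 3 of these, all lower in prevention. Msmo1, a sterol methyl oxidase, was at 8.62, 9.01 and 10.07 in prevention chow and 8.90, 6.71 and 6.53 in prevention CMPF HFD, and at 5.97, 7.96 and 5.66 in reversal chow and 10.61, 9.83 and 11.29 in reversal CMPF HFD. It lay at -1.47 ± 0.77 in prevention and 4.05 ± 0.68 in reversal, a difference of -5.52 ± 1.03 (limma adjusted p = 0.0426). Fdps was at -1.26 and 3.11, a difference of -4.37 ± 0.84 (0.0426), and Stard4 at -0.68 and 1.48, a difference of -2.16 ± 0.43 (0.0449). Over the 18 genes the median was -0.33 in prevention and 1.37 in reversal, where 8 rose, against 0.00 and 0.03 for all genes. Tmem97, a sterol-binding protein named by its p and not in the list, was at -0.57 and 1.35, a difference of -1.93 ± 0.28 (0.0195). Thrsp, a nuclear protein of lipogenesis, was at 9.59, 9.55 and 10.48 in prevention chow, 10.10, 10.52 and 10.44 in prevention CMPF HFD, 7.38, 8.60 and 7.60 in reversal chow and 12.09, 11.32 and 12.54 in reversal CMPF HFD. Its difference between models was -3.71 ± 0.59 (0.0312). Thrsp, Msmo1 and Bhlhe40 were named after their values were seen.

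**Figure D4:**
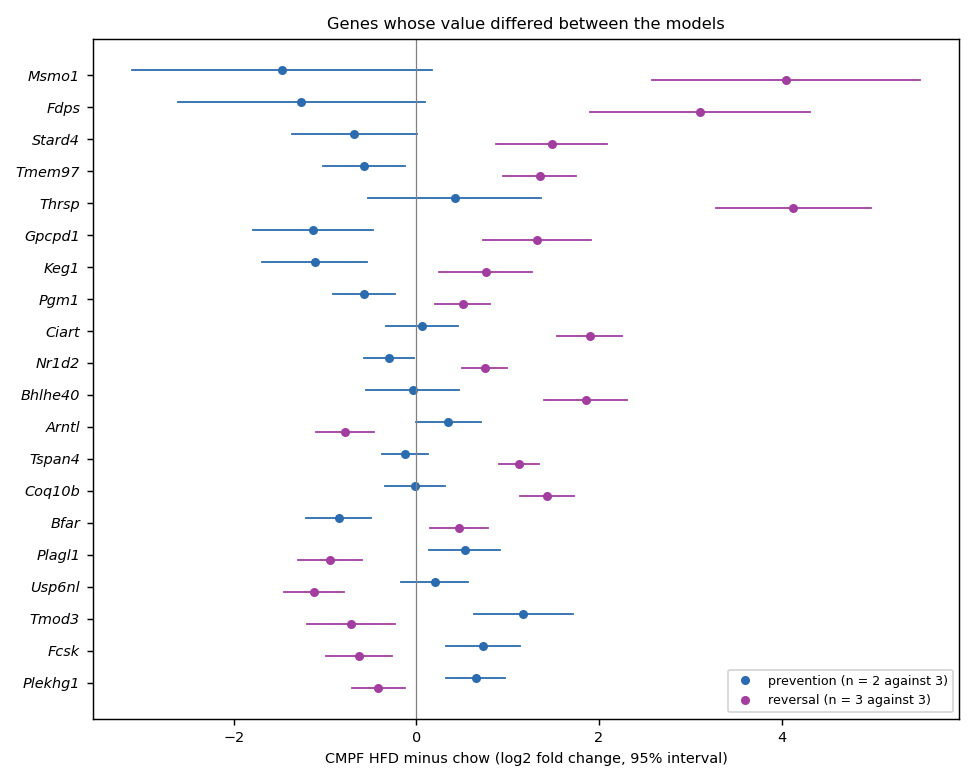
CMPF HFD minus chow (x axis, log2 fold change with its 95% interval from limma) in the prevention (blue) and reversal (purple) models, for 20 genes (rows) whose difference between models passed an adjusted p of 0.05. Msmo1 lies at -1.47 in prevention and 4.05 in reversal, and Tmod3 at 1.17 and -0.72.

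Clock genes formed another group. The circadian clock runs on the activators CLOCK and BMAL1 (gene Arntl), which drive their own repressors through E-boxes, while REV-ERB proteins hold Arntl down through ROR elements. Ciart, a repressor of the activators, was at 6.69, 6.70 and 6.70 in prevention chow and 6.76, 6.67 and 6.85 in prevention CMPF HFD, and at 5.23, 5.38 and 5.44 in reversal chow and 7.23, 7.07 and 7.44 in reversal CMPF HFD. It lay at 0.07 ± 0.18 in prevention and 1.90 ± 0.16 in reversal, and the difference of -1.83 ± 0.25 had an adjusted p of 0.0195 in limma. Nr1d2, a REV-ERB receptor, was at -0.30 and 0.75 (difference -1.04 ± 0.17, adjusted p = 0.0329), and Bhlhe40, another repressor, at -0.04 and 1.85 (-1.89 ± 0.32, 0.0329). Arntl stood the other way, at 4.90, 4.71 and 4.73 in prevention chow, 5.23, 4.93 and 5.12 in prevention CMPF HFD, 5.75, 6.16 and 6.00 in reversal chow and 5.25, 5.14 and 5.18 in reversal CMPF HFD. Its difference was 1.13 ± 0.22 (0.0449). The difference of Arntl passed in 6 of 15 alternatives, the fewest among the 20 named differences, and was 0.72 with the mean of its probe sets. Arntl was not among the genes tested with 60% of probe sets dropped. Ciart passed in 13, Bhlhe40 in 11 and Nr1d2 in 9 of 16 alternatives. Over 14 repressors and outputs the median was 0.06 in prevention and 0.99 in reversal, where 7 rose, and over 9 activators and Cry genes 0.35 and 0.29. In prevention alone, Clock differed by 0.40 ± 0.21 (adjusted p = 0.535), Csnk1d, a kinase of the PER proteins, by 0.65 ± 0.20 (0.399), and Per2 by 0.51 ± 0.31 (0.578). Csnk1d was at 0.04 for the mean of its probe sets and 0.21 with the index as a covariate. The hour at which livers were taken is not stated in the labels.

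The promoter windows of Ciart and Arntl are printed because these genes stood on opposite sides of the difference between models. Searched on both strands, CACGTG (the E-box) is in 7.15% and TAGGTCA (a ROR element) in 2.61% of all windows. The window of Ciart (chr3:95882179-95882478, minus strand) holds CACGTG 3 times, at positions -116, -58 and -44 from the start. That of Arntl at the second of its starts (chr7:113207261-113207560, plus strand) holds TAGGTCA at position 31 after it, while the window at its other start and that of Nr1d2 hold neither. Both are written 5' to 3' with the matches in capitals.
Ciart: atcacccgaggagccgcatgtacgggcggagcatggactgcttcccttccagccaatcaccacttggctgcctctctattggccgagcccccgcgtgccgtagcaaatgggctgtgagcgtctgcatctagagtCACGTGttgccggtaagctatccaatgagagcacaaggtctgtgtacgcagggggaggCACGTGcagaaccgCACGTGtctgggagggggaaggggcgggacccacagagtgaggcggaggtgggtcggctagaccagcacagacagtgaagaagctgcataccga
Arntl: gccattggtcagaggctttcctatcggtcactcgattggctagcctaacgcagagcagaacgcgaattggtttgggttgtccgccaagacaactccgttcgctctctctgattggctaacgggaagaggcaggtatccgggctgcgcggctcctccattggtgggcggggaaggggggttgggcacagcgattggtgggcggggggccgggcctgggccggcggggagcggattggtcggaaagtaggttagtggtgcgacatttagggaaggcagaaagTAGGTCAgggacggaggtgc

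Other genes that passed for the difference between models are given by the rule of smallest p. Lower in prevention were Tspan4, a tetraspanin, at -0.13 in prevention and 1.12 in reversal (difference -1.25 ± 0.16, limma adjusted p = 0.0179) and Coq10b, a coenzyme Q binding protein, at -0.02 and 1.43 (-1.45 ± 0.21, 0.0195). Tspan4 was at 9.81, 9.73 and 9.76 in prevention chow and 9.73, 9.56 and 9.54 in prevention CMPF HFD, close together, so the size of its difference came from the reversal model; the values of Ciart and Coq10b in prevention were 0.07 and -0.02. Higher in prevention were Plagl1, an imprinted zinc finger protein, at 0.53 and -0.94 (1.47 ± 0.25, 0.0329), Usp6nl, a RAB GTPase activator, at 0.20 and -1.12 (1.32 ± 0.23, 0.035), and Tmod3, a tropomodulin that caps actin filaments, at 1.17 and -0.72 (1.89 ± 0.34, 0.0371). Fcsk, fucose kinase, had a difference of 1.36 ± 0.25 (0.0426) and Plekhg1 of 1.07 ± 0.20 (0.0426). With the mean of its probe sets Tmod3's difference was 0.12.

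Gpcpd1, Pgm1 and Keg1, members of lists above, and Bfar had opposite signs in the models. Gpcpd1 was at -1.13 in prevention and at 8.79, 9.39 and 9.73 in reversal chow against 10.76, 10.26 and 10.84 in reversal CMPF HFD, a difference between models of -2.45 ± 0.41 (limma adjusted p = 0.0329). Pgm1 was at -0.58 and 0.51 (difference -1.08 ± 0.21, 0.0432), Keg1 at -1.11 and 0.76 (-1.87 ± 0.36, 0.0426) and Bfar at -0.85 and 0.47 (-1.32 ± 0.22, 0.0329). Cpt1a was at -0.84 in prevention and 0.03 in reversal, and Got1 at -2.81 and -0.43, but their differences had an adjusted p of 0.08 and 0.128. Scd1 was at -3.18 in prevention and -3.20 in reversal, with an adjusted p of 0.0627 for the latter, and Pparg at 0.96 and 0.78, where it rose (adjusted p = 0.0383). The 95% intervals of the difference between models were -2.62 to 2.66 for Scd1 and -0.38 to 0.75 for Pparg.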

How the data were processed

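Liver RNA was measured on 18 Affymetrix mouse arrays in 6 groups of 3. The deposited values are log2 signals that the authors made with Affymetrix Expression Console 1.1 and RMA, per the submitters' processing notes; scan batches are not given in the sources used here. Of 45101 probe sets, 64 controls were set aside, 34945 had 1 gene symbol in the platform annotation, 932 several and 9160 were not listed. Probe sets in the lowest 40% by mean signal were dropped, and a gene was represented by its brightest probe set, which left 13228 of 18193 genes; 1520 of these probe sets can cross-hybridise by their name. One limma 3.58.1 model (R 4.3.3) of the 6 group means was fitted to 17 samples (11 residual and 3.02 prior degrees of freedom), with Benjamini-Hochberg adjustment over all genes and a threshold of 0.05. It was tested on simulated data. Exact permutation tests used scipy. The 47 gene lists had 772 of 904 memberships tested (C5 matched as Hc, Bmal1 as Arntl, Atp5f1 as Atp5pb); 24 lists are described. The members and lists were chosen with earlier results of these data known. Named genes were, where fewer than 3 passed, the 3 with the smallest p per direction, 4 per list described, 12 given always, and 5 per direction for CMPF HFD against HFD and for the difference between models, without predicted genes; 1 gene that the rule names is not reported here. Alternatives were other filters, probe set rules, normalizations, samples, weights, priors, a replicate block, the index and thresholds. Promoter sequences are from RefSeq (GRCm38.p6); the build of the array annotation is not given in the sources used here.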

Additional observations from a re-analysis of the deposited data

Results flagged for a closer look

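The value of CMPF HFD against chow differed between the prevention and the reversal model, by a test of the difference itself in limma, for 50 genes, which is what singled out the values here. Of those named in the text, 14 were lower in prevention: Tspan4 at -1.25, Ciart at -1.83, Coq10b at -1.45, Tmem97 at -1.93, Bfar at -1.32, Stard4 at -2.16, Fdps at -4.37, Pgm1 at -1.08, Nr1d2 at -1.04, Keg1 at -1.87, Gpcpd1 at -2.45, Thrsp at -3.71, Msmo1 at -5.52 and Bhlhe40 at -1.89 (prevention minus reversal, log2). Higher in prevention were Plagl1 at 1.47, Usp6nl at 1.32, Tmod3 at 1.89, Fcsk at 1.36, Plekhg1 at 1.07 and Arntl at 1.13. In prevention, CMPF HFD exceeded chow by 1.53 on the 3' to 5' index, while in reversal the groups overlapped. With the index as a covariate 0 of the differences passed. The prevention groups did not overlap on the index, so a loss of calls with this covariate cannot tell the index from the group. Over all alternatives, 0 of the 319 values of the 20 named differences changed sign. The part of the index in these differences was not tested. No group held enough arrays for a test of single outlying values.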

How the results depend on the processing

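Counts of genes past the threshold, in the order CMPF HFD against chow in prevention (0), CMPF HFD against HFD (0), HFD against chow (737), CMPF HFD against chow in reversal (265) and the difference between models (50), ranged from 0 to 1, 0 to 0, 8 to 1624, 138 to 264 and 0 to 257 with 1 sample left out in turn among the 3 prevention chow and 2 prevention CMPF HFD samples and, added after the data were seen, reversal chow 2; the other arrays were not left out. With all 18 arrays counted they were 6, 36, 1019, 385 and 281, and with the replicate block on all 18 arrays 0, 0, 890, 273 and 236. Against the fit of all 18 arrays, the block ended the 6 calls of the first comparison; same-numbered arrays did not pair (correlations of their deviations -0.34, -0.37 and -0.06). Array weights gave 190, 98, 2021, 2730 and 2359. The index as a covariate gave 0, 0, 17, 377 and 0. A fit on the 8 prevention samples gave 1151 for HFD against chow, and quantile normalization and cyclic loess gave 1 each for CMPF HFD against HFD. An adjusted p of 0.1 gave 0, 0, 1631, 636 and 278, and asking for over 2-fold as well gave 0, 0, 193, 109 and 46. The normalizations moved the split of higher to lower calls: in reversal from 213 and 52 to 118 and 119 with quantile normalization and 145 and 104 with cyclic loess, in HFD against chow from 230 and 507 to 331 and 479 and to 333 and 408, and in the difference between models from 12 and 38 to 30 and 32 and to 17 and 32. The cause of these changes was not tested. The difference of the 3' to 5' index was 1.61 for Gapdh and 1.45 for beta-actin alone and 1.30 to 1.81 without each sample. Of 1868 values of 104 named genes under 18 alternatives, 1816 kept direction and side of the threshold, 39 passed it and 13 changed sign. The latter were Fasn, from -0.51 to 0.27 on leaving out each sample; Acaca, from -0.13 to 0.20 on leaving out each sample, at -0.020 both with all 18 arrays and with the block, and at -0.13 adjusted for the index; Ppara at 0.014 and Dgat2 at -0.083 with the mean of the probe sets; and, adjusted for the index, Pck1 at 0.081, Abhd5 at 0.084, Crot at 0.090, Pdia3 at 0.23 and Per2 at -0.091. Of 319 values of 20 differences between models, 117 no longer passed and 0 changed sign, and of 432 list medians 30 moved by more than the spread between replicates. Arrays give no depth; 2 samples against 3 limit the precision.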
